A study of Mus musculus with 13 samples.

Results

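The ISG15 conjugation pathway was followed through 5 genes measured in mouse bone marrow. They were Isg15, which encodes the modifier, Uba7 (its activating enzyme), Ube2l6 (its conjugating enzyme), Herc6 (its main ligase in the mouse) and Usp18 (the protease that takes it off again). They were found by symbol among the 19505 gene symbols of the arrays, and each had 1 row. Ube2l6 had been picked for its lower signal when an Ezh2 guide was added, so its values are given as a description without a test. The other 4 members were taken for their place in the pathway, with results of these data known.

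ISG15 is a small ubiquitin-like protein that is attached to other proteins by a chain of an activating enzyme (E1), a conjugating enzyme (E2) and a ligase (E3), as ubiquitin is. Type I interferon induces the modifier together with its enzymes, through the transcription factor complex known as ISGF3. USP18 removes ISG15 from its targets, and in a separate role it binds the interferon receptor chain IFNAR2 and dampens the response. In marrow, interferon acts on stem cells, myeloid cells and lymphocytes alike.

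Whole marrow RNA had been hybridised to 13 Affymetrix arrays. Each recipient was a C57Bl/6J mouse that had received 7 Gy and, 24 h after guide transduction, LSK cells from Cas9 knock-in donors; LSK is a marrow fraction rich in stem and progenitor cells. The groups were BRSST+sgEzh2, the guide combination named BRSST with a guide against Ezh2 (4 arrays), BRSST+sgLuc, the same combination with the control guide sgLuc (5 arrays), and sgLuc alone (4 arrays). The sources used here do not give what BRSST stands for, the age of the mice or which of them were leukemic. Marrow was taken either when signs of leukemia appeared or at 6 months. All groups share Cas9 donor cells, irradiation and transplantation. The labels do not say whether each array was a separate mouse, so the p-values measure only the spread among these samples, and part of it may be technical. Residual host cells are part of whole marrow, and in such bulk RNA fewer cells of a type and less RNA per cell cannot be told apart.

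Array medians lay between log2 7.19 and 7.32. The tissue label fits its markers, with 11 neutrophil genes averaging log2 12.59 to 12.98 on every array. Ezh2, the gene targeted by the added guide, stood at 48.4% of its BRSST+sgLuc signal in BRSST+sgEzh2 marrow, which did not pass the test (limma adjusted p = 0.0808). Against sgLuc it stood at 33.6% in BRSST+sgEzh2 marrow, which passed (limma adjusted p = 0.00306), and at 69.5% in BRSST+sgLuc marrow, which did not (0.172). Array numbers in the labels run on through both BRSST groups and restart for sgLuc, so an array batch and sgLuc cannot be told apart. By the mean signal of the Y-linked genes Uty and Kdm5d the arrays fell into a high class (at least log2 7.08) and a low class (at most 5.11). The high class held 2 of 4 BRSST+sgEzh2, 2 of 5 BRSST+sgLuc and 4 of 4 sgLuc arrays.

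A promoter window of 250 bases before and 50 after the start was found in the RefSeq table (GRCm38.p6) for 4 of the 5 members. The windows of Isg15 and Ube2l6 are shown because these 2 genes parted in the comparison of the Ezh2 guide described next. Capitals mark GAAANNGAAA, the core of the element that ISGF3 binds, searched on both strands.
Isg15: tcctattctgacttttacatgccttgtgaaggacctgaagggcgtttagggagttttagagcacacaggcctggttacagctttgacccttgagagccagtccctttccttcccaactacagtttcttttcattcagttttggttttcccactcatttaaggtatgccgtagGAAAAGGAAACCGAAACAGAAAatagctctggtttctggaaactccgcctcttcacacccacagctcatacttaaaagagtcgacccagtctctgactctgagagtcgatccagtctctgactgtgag
Ube2l6: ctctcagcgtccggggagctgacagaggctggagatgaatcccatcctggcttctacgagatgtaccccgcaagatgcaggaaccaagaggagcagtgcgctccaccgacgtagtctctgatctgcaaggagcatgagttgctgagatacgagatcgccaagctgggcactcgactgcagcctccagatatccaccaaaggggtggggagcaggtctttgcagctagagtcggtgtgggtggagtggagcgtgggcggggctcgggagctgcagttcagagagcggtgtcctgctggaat
The Isg15 window lies at chr4:156200769-156201068 on the minus strand and holds 3 overlapping matches, from 78 to 57 bases before the start. The Ube2l6 window lies at chr2:84798578-84798877 on the plus strand and holds none, as do the windows of Uba7 and Herc6. Among 32851 windows, which leave out those on a chromosome holding none of these 4 members, 3.44% held a match. Of 23 type I interferon-stimulated genes with a window 13 had a match in any of their windows. The first share counts windows and the second counts genes, and a gene with several windows has more chances of a match. An absent match says only that these letters are not in this window. The Ube2l6 window contains 15 CG dinucleotides, against 6 in that of Isg15, 4 in that of Herc6, 2 in that of Uba7 and a median of 7 over the 32851 windows.

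Adding the Ezh2 guide to BRSST marrow, the comparison that asks what that guide changes, went with a lower signal of Ube2l6 and with no called change of the 4 other members. Ube2l6, the E2 that hands ISG15 to its ligase, had log2 signals of 6.25, 6.82, 7.27 and 7.31 on the BRSST+sgEzh2 arrays, and of 8.40, 9.21, 8.30, 8.06 and 8.41 on the BRSST+sgLuc arrays. The groups were separated by a gap of log2 0.75, and 3 of the 4 BRSST+sgEzh2 signals lay below the median of their array. The difference was -1.56 ± 0.24 (log2, SE of the fit), which puts Ube2l6 at 33.8% of its BRSST+sgLuc signal. This is the value it was picked for. Among arrays with high Y-linked signals the difference was -1.70 (2 arrays against 2), and among those with low ones -1.35 (2 against 3). Each of the 3 comparisons shares arrays with that choice, so Ube2l6 carries no test in any of them.

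Isg15, the modifier itself, read 6.95, 7.00, 6.89 and 6.84 with BRSST+sgEzh2 and 6.73, 7.55, 6.60, 6.50 and 6.43 with BRSST+sgLuc. The first group lay inside the range of the second. The difference was 0.16 ± 0.20 (limma adjusted p = 0.788), with a 95% interval from -0.27 to 0.59. Uba7, the E1, read 10.52, 10.45, 10.70 and 10.65 with BRSST+sgEzh2 and 10.24, 10.72, 10.56, 10.55 and 10.14 with BRSST+sgLuc. Its groups overlapped, and it differed by 0.13 ± 0.12 (limma adjusted p = 0.687, interval -0.13 to 0.40). Herc6, the ligase, read 8.57, 8.85, 8.76 and 9.04 with BRSST+sgEzh2 and 8.89, 8.99, 8.96, 8.26 and 8.97 with BRSST+sgLuc, again overlapping. The difference was -0.01 ± 0.18 (limma adjusted p = 0.993, interval -0.39 to 0.38). Usp18, the protease, read 6.84, 7.59, 7.26 and 7.50 with BRSST+sgEzh2, between the extremes of 6.45 and 8.19 with BRSST+sgLuc. It differed by 0.10 ± 0.27 (limma adjusted p = 0.906, interval -0.47 to 0.67). Without BRSST+sgLuc replicate 2 the difference was 0.35 for both Isg15 (limma adjusted p = 0.196) and Usp18 (0.399), with 0.21 for Uba7. Without replicate 5 of the same group it was 0.07 for Isg15, 0.06 for Uba7 and -0.09 for Usp18. The signal of Isg15 was below the array median on most arrays of both groups. Usp18 was above it on 2 of 4 BRSST+sgEzh2 arrays and 1 of 5 BRSST+sgLuc arrays. Below the array median a further fall may not be measurable. None of the 4 was called, beside 0.113% of 10601 tested genes called lower and 0.67% called higher.

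**Figure D1:**
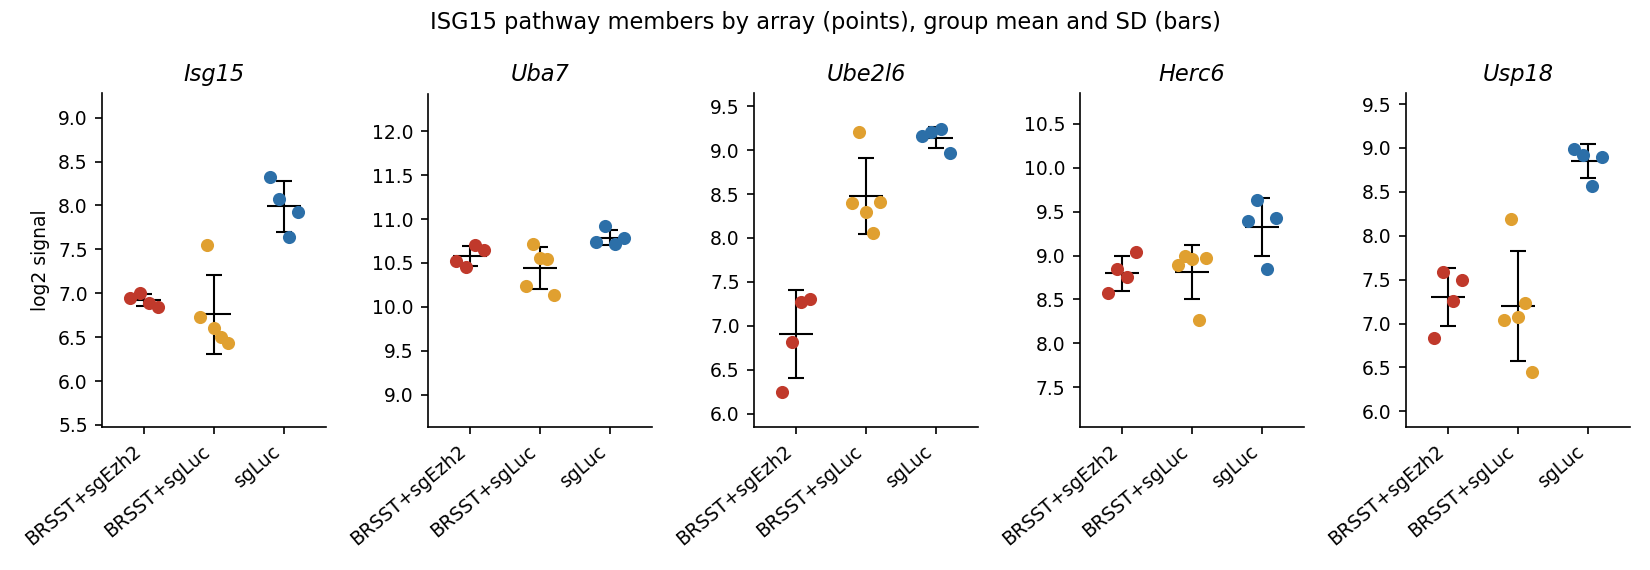
Log2 signal of each member on every array (points) in the 3 groups, with the group mean and SD as black bars; the vertical axes span the same log2 range but start at different values. Ube2l6 separates BRSST+sgEzh2 (6.25 to 7.31) from BRSST+sgLuc (8.06 to 9.21), while the other members overlap between those groups.

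The gap between Ube2l6 and its partners was seen on every BRSST+sgEzh2 array. Each signal was first taken relative to its gene's sgLuc mean, and the mean of the 4 other members was then subtracted from Ube2l6. This left -1.88, -1.56, -1.04 and -1.10 on the BRSST+sgEzh2 arrays. On the BRSST+sgLuc arrays it left 0.27, 0.44, 0.09, 0.02 and 0.50, and on the sgLuc arrays -0.11, -0.09, 0.39 and -0.19. In BRSST+sgLuc marrow Ube2l6 thus lay level with or slightly above the shift of its partners, and in BRSST+sgEzh2 marrow well below it. Because Ube2l6 was chosen on these arrays, the contrast is a description.

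**Figure D2:**
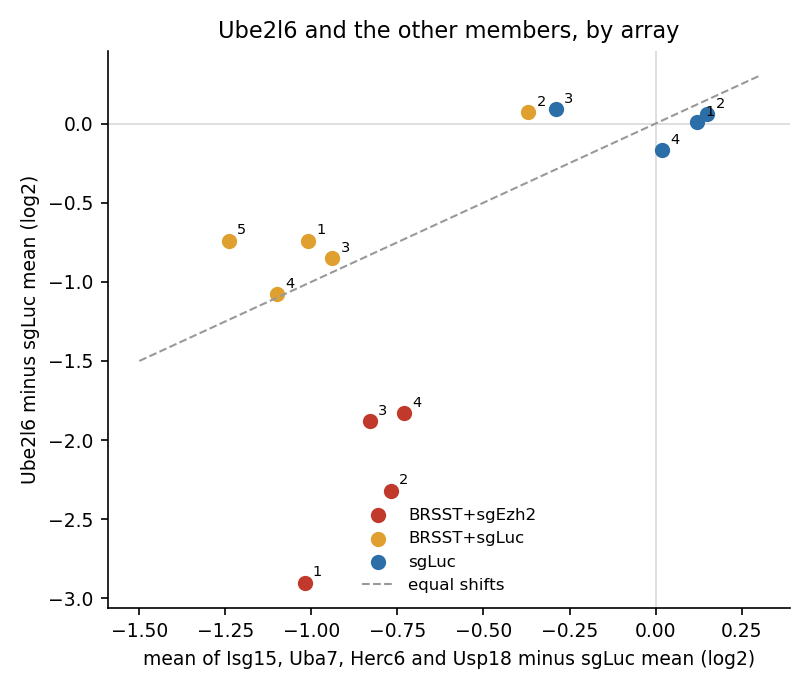
Signal of Ube2l6 against the mean of Isg15, Uba7, Herc6 and Usp18 on each array, both as log2 difference from the sgLuc mean, numbered by replicate; the dashed line marks equal shifts. The 4 BRSST+sgEzh2 arrays lie 1.04 to 1.88 below the line, and the BRSST+sgLuc arrays lie 0.02 to 0.50 above it.

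Among genes that work with or like the members, none was called lower with the Ezh2 guide. Of all tested genes 0.113% were called lower and 0.67% higher, so an absence of calls in these lists says little about them. Trim25, another ISG15 ligase, differed by -0.14 ± 0.16 (limma adjusted p = 0.745) between the BRSST groups. Ube2l3, the ubiquitin E2 closest to Ube2l6, differed by -0.07 ± 0.08 (0.748). Of 27 other tested E2 genes none was called, and the lowest, the NEDD8 enzyme Ube2f, stood at -0.39 ± 0.12 (0.153). None of 5 other E1 genes, 4 other HERC genes, 37 USP proteases or 11 ubiquitin-like modifiers was called by limma. At an unadjusted p under 0.05 the E2 list had 1 gene higher and 2 lower, the E1 list 0, the HERC list 1 higher, the USP list 5 higher and 2 lower, and the modifiers 1 lower. The share of all tested genes at that unadjusted level is not given, here or for the lists below. With array quality weights 2 E2 genes and 2 modifiers were called lower, and 2 USP genes in each direction. Without BRSST+sgLuc replicate 3, 2 USP genes and 1 gene of the ISG15 partner list were called higher. Over all tested genes the calls in this comparison also moved with the setting, from 17 to 1039 beside 83 in the main fit. Medians of these 5 lists ran from -0.12 to 0.12, beside 0.01 over all tested genes.

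No gene of the interferon pathway lists was called lower with the Ezh2 guide, where 0.113% of all tested genes were called lower and 0.67% higher. At those shares 0 calls in lists of this size say little about the lists. Stat2 and Irf9, which encode subunits of ISGF3, differed by -0.09 ± 0.10 and 0.20 ± 0.16 (limma adjusted p = 0.757 and 0.637). Of 6 receptor and ISGF3 genes 0 were called by limma, and 1 was higher at an unadjusted p under 0.05. Of 8 interferon regulatory factors 1 rose, Irf5, by 0.52 ± 0.11 (limma adjusted p = 0.0401), and the other 7 had higher means without passing. The call of Irf5 was lost with any one of the 4 BRSST+sgEzh2 arrays left out, and without replicate 1 or 4 of BRSST+sgLuc or replicate 1, 2 or 4 of sgLuc (limma adjusted p of up to 0.133). Of 21 tested type I interferon-stimulated genes 0 were called by limma and 1 was lower at an unadjusted p under 0.05, with a median of 0.13. The lowest was Ifit3, an antiviral RNA-binding protein, at -0.38 ± 0.24 (0.526), and the highest Rtp4 at 0.46. The list of 12 textbook ISG15 substrates had 8 tested genes and 0 limma calls, with Ddx58, the RNA sensor RIG-I, at -0.34 ± 0.15 (0.313), the 1 gene under an unadjusted 0.05.

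**Figure D3:**
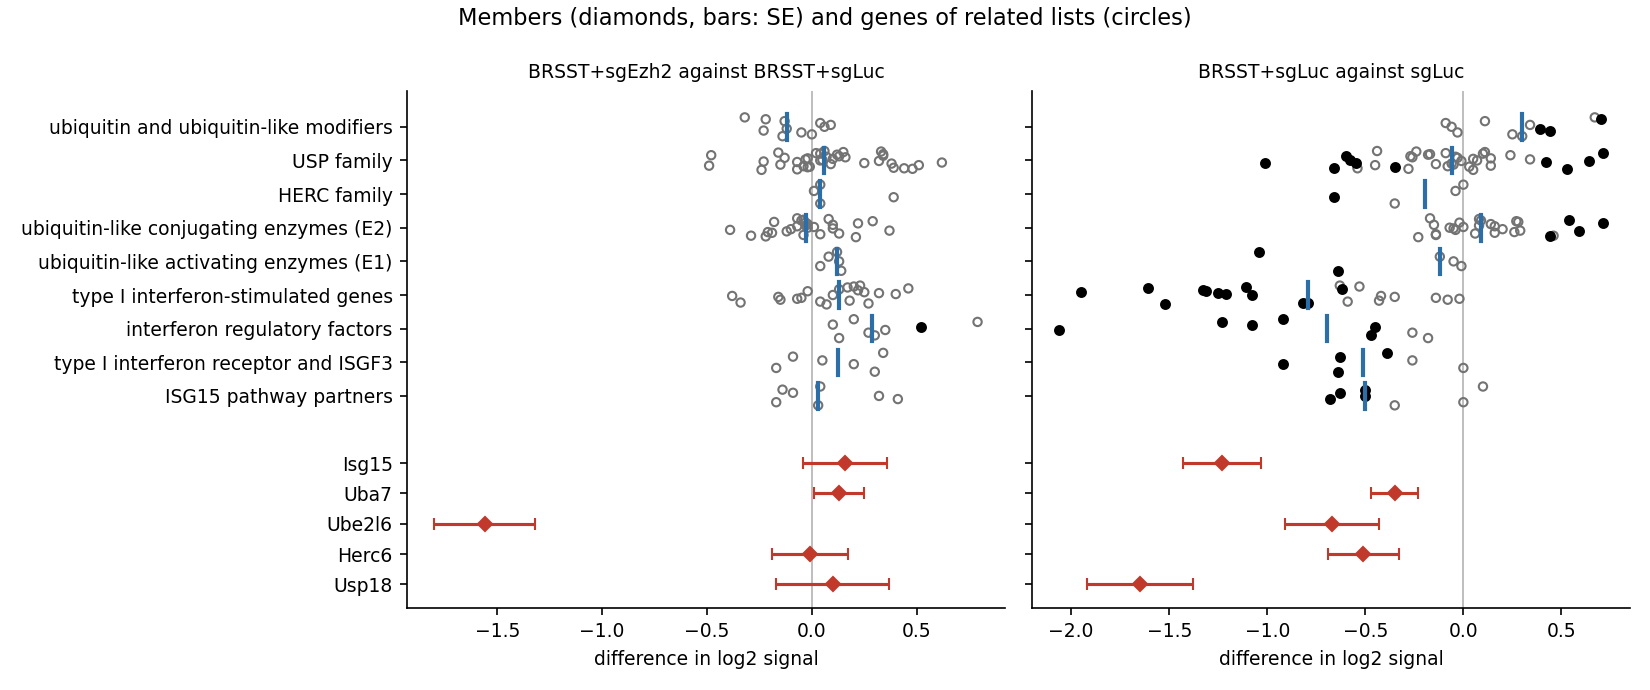
Difference in log2 signal of the members (red diamonds, bars are SE) and of the genes in 9 related lists (circles, filled where the limma adjusted p was under 0.05; blue ticks are list medians) for the Ezh2 guide on BRSST marrow (left) and for BRSST+sgLuc against sgLuc (right). At left Ube2l6 (-1.56) stands apart from all circles; at right the 5 members all lie below 0, among the interferon lists.

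The chromosomal neighbours of Ube2l6 were looked at as well. In RefSeq order the measured genes around it are Ypel4, Gm19426, Serping1 (the C1 inhibitor of complement), then Smtnl1, Timm10 (a mitochondrial import chaperone) and Slc43a1 (an amino acid transporter). With the Ezh2 guide these 6 differed by -0.61 to -0.08, and 0 of the 5 that were tested were called. Serping1 and Smtnl1, on either side, stood at -0.10 ± 0.19 and -0.08 ± 0.18 (limma adjusted p = 0.862 and 0.883), and Slc43a1 at -0.61 ± 0.24 (0.26). All 6 had a lower mean in BRSST+sgEzh2 marrow, none by as much as Ube2l6.

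**Figure D4:**
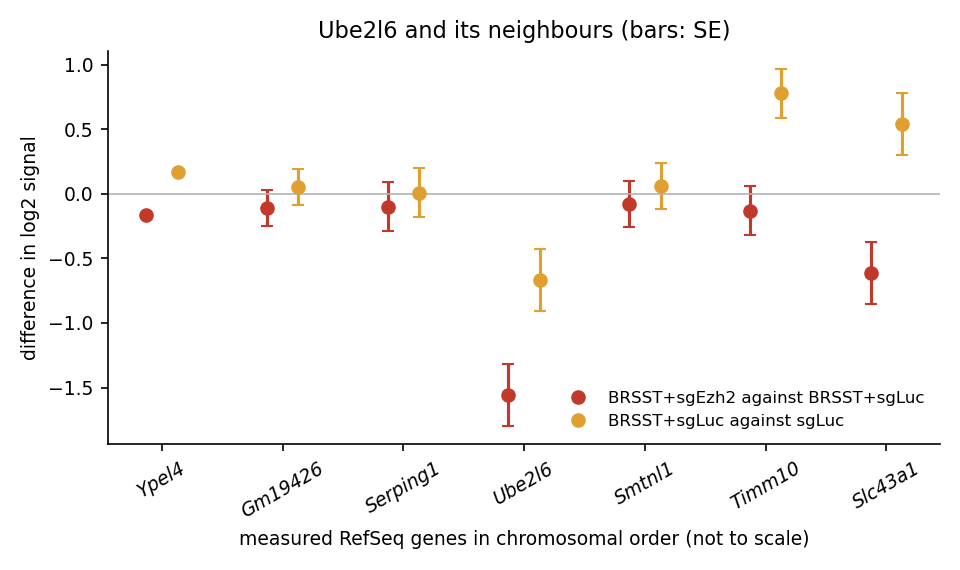
Difference in log2 signal of Ube2l6 and of the 3 measured RefSeq genes on each side of it, in chromosomal order, for the 2 comparisons named in the legend (bars are SE; Ypel4 was not tested and has none). Next to Ube2l6 at -1.56, Serping1 and Smtnl1 lie at -0.10 and -0.08.

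Set against sgLuc marrow, the comparison that asks what the BRSST guides change, BRSST+sgLuc marrow had lower mean signals of every member, and 2 of the 4 that were tested fell. Those 2, Usp18 and Isg15, passed the filter on low signals only with the sgLuc arrays counted, as set out below. Usp18 signals were 7.04, 8.19, 7.08, 7.23 and 6.45 with BRSST+sgLuc and 8.99, 8.92, 8.57 and 8.90 with sgLuc. No BRSST+sgLuc array reached the lowest sgLuc array. Usp18 fell by 1.65 ± 0.27 on the log2 scale, to 32% of the control (limma adjusted p = 0.00104). Isg15 read 8.32, 8.07, 7.64 and 7.93 on the sgLuc arrays, all above the 5 BRSST+sgLuc arrays given earlier. It fell by 1.23 ± 0.20, to 42.7% (limma adjusted p = 0.00113). In this comparison 11.7% of tested genes were called lower and 10.8% higher.

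Uba7 and Herc6, the E1 and the ligase, did not pass the threshold, and their calls varied with the arrays and settings used. Uba7 signals ran from 10.14 to 10.72 with BRSST+sgLuc and from 10.72 to 10.92 with sgLuc, touching at the edge. The difference was -0.35 ± 0.12 (limma adjusted p = 0.0566). Herc6 signals ran from 8.26 to 8.99 and from 8.85 to 9.63, which overlap. Their difference was -0.51 ± 0.18 (limma adjusted p = 0.0558). Without BRSST+sgLuc replicate 2 both were called, Uba7 at -0.42 (limma adjusted p = 0.0181) and Herc6 at -0.56 (0.0467), and without sgLuc replicate 3 Herc6 was called at -0.67 (0.0189). In the other direction, Uba7 stood at -0.27 (0.0955) without BRSST+sgLuc replicate 5 and at -0.30 (0.155) without sgLuc replicate 2. Herc6 stood at -0.37 (0.121) without BRSST+sgLuc replicate 4 and at -0.41 (0.172) without sgLuc replicate 2. With the Y-linked class of the array as a block, chosen after seeing the data, both were called, Uba7 at -0.43 (limma adjusted p = 0.0476) and Herc6 at -0.69 (0.0218). Within the high class, the one that holds sgLuc arrays, the differences were -0.40 for Uba7, -0.75 for Herc6, -1.37 for Isg15 and -1.71 for Usp18 (2 arrays against 4, no test). Ube2l6 read 9.16, 9.21, 9.24 and 8.97 with sgLuc, so that BRSST+sgLuc replicate 2, at 9.21, lay among the controls and the other 4 arrays below them. Its difference was -0.67 ± 0.24, or 62.9% of the control; it was -0.89 without replicates 2 and 5 of BRSST+sgLuc, -0.56 without replicate 4, -1.01 with the Y-linked class as a block and -0.91 within the high class.

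The filter on low signals bears on Isg15 and Usp18. A gene was tested if it exceeded the array median on at least 4 arrays. Isg15 did so on 4 of 4 sgLuc arrays, 1 of 5 BRSST+sgLuc arrays and 0 of 4 BRSST+sgEzh2 arrays, and Usp18 on 4, 1 and 2. Both passed only because the arrays of sgLuc, the group where they are high, were counted. The filter thus favours genes that fall against sgLuc. With no filter their differences were the same, with limma adjusted p of 0.00122 and 0.00108 for BRSST+sgLuc against sgLuc. The sizes are uncertain where a signal lies below the array median. Uba7 and Herc6 were above it on 13 of 13 arrays and Ube2l6 on 10.

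BRSST+sgEzh2 marrow set against sgLuc shares its controls with the comparison just given, and its BRSST+sgEzh2 arrays with the first. Isg15 fell by 1.07 ± 0.21 (limma adjusted p = 0.0063) and Usp18 by 1.55 ± 0.28 (0.00362). All BRSST+sgEzh2 arrays lay below every sgLuc array for both genes. Uba7 differed by -0.21 ± 0.13 (limma adjusted p = 0.348) and Herc6 by -0.52 ± 0.19 (0.108), the latter called at -0.68 without sgLuc replicate 3 (0.0407) and at -0.67 with the Y-linked class as a block (0.0455), and at -0.42 without sgLuc replicate 2 (0.269). Ube2l6 stood at -2.23 ± 0.25, or 21.3% of the control signal, with a gap of log2 1.66 between the groups. Of all tested genes 3.86% were called lower and 5.51% higher.

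Interferon genes around the pathway were lower in BRSST+sgLuc marrow too, where 11.7% of all tested genes were called lower against sgLuc. Stat2 fell by 0.63 ± 0.10 and Irf9 by 0.92 ± 0.16 (limma adjusted p = 0.000973 and 0.00163), and the receptor chain Ifnar1 by 0.64 ± 0.16 (0.0133). Of 6 receptor and ISGF3 genes 4 fell, the fourth being the kinase Tyk2 at -0.39 ± 0.13 (limma adjusted p = 0.0412). The ISG15 partner list had 7 tested genes, of which 4 fell. They were Stat2, Itgal, the integrin chain that binds extracellular ISG15 (-0.68 ± 0.14), Trim25 (-0.50 ± 0.16) and Skp2, a ubiquitin ligase subunit that targets USP18 (-0.50 ± 0.15), with limma adjusted p of up to 0.0345. The partner count was 2 without replicate 2 or 4 of BRSST+sgLuc or replicate 1, 2 or 4 of sgLuc, with Trim25 and Skp2 lost each time. Trim25 also missed without BRSST+sgLuc replicate 1 or 3 and Skp2 without sgLuc replicate 3 (limma adjusted p of up to 0.0995 and 0.0887). Tyk2 kept its call with replicate 3 or 5 of BRSST+sgLuc or replicate 4 of BRSST+sgEzh2 left out, and lost it with each of the 10 other arrays left out (up to 0.118). Of 30 measured interferon-stimulated genes 21 passed the filter on low signals. Of these 21 genes 12 fell and 0 rose, with a median of -0.79 beside 0.01 over all tested genes. A gene high only on the 4 sgLuc arrays passes that filter and can only fall against them, so these counts are not independent of the filter. Oas2, an antiviral enzyme, differed by -1.95 ± 0.30, and Oasl2 of the same family by -1.33 ± 0.19 (limma adjusted p = 0.000736 and 0.000416). Of 8 interferon regulatory factors 6 fell. The largest falls were of Irf4 by 2.06 ± 0.33 and Irf8 by 1.23 ± 0.21 (limma adjusted p = 0.000899 and 0.00144). Irf7, the amplifier of interferon production, fell by 1.08 ± 0.25 (limma adjusted p = 0.0087). Irf9 is counted both here and among the receptor and ISGF3 genes, and Stat2 both there and among the partners, so the counts are not independent. In BRSST+sgEzh2 against sgLuc 9 of the 21 interferon-stimulated genes, 3 of 8 regulatory factors, 2 of 6 receptor and ISGF3 genes and 2 of 7 partners fell, beside 3.86% of all tested genes. Without sgLuc replicate 1 or 2 these counts were 4 or 5, 1, 1 and 1. The interferon-stimulated count was also 4 or 5 without BRSST+sgEzh2 replicate 1 or sgLuc replicate 4, and the partner count 1 without any of BRSST+sgEzh2 replicates 1 to 3 or sgLuc replicate 4.

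Enzymes and modifiers of other ubiquitin-like pathways had calls in both directions in BRSST+sgLuc marrow. Beside them stand the 10.8% of all tested genes that rose and the 11.7% that fell. Of 27 other E2 genes 4 rose, a share near that of all genes, and 0 fell, with Ube2q2 at 0.71 ± 0.17 and Ube2e1 at 0.59 ± 0.13 (limma adjusted p = 0.00851 and 0.00703). Of 11 ubiquitin-like modifiers 3 rose and 0 fell, led by Ufm1, the modifier of the UFMylation pathway, at 0.70 ± 0.09 (limma adjusted p = 0.000288), and the count was 1 without BRSST+sgLuc replicate 1 or 4 or sgLuc replicate 2. Of 5 other E1 genes 2 fell, Uba6, an E1 for ubiquitin and FAT10, by 1.04 ± 0.15 and Atg7, the E1 of autophagy, by 0.64 ± 0.10 (limma adjusted p = 0.000569 and 0.00063). Ube2l3 stood at 0.16 ± 0.08 (limma adjusted p = 0.195).

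Markers of several cell types moved with these differences. In BRSST+sgLuc against sgLuc 7 of 8 plasmacytoid dendritic cell genes fell, 9 of 10 B lineage genes, 6 of 8 T and NK genes and 5 of 7 basophil and mast cell genes, beside 11.7% of all tested genes. Prss34, a basophil protease, fell by 4.76 ± 0.22 (limma adjusted p = 3.54e-08), the largest of these falls. The filter on low signals lets in markers that are high only on the 4 sgLuc arrays, and such markers can only fall against them. Ccr9 of the plasmacytoid list averaged log2 5.42 with BRSST+sgLuc, 5.30 with BRSST+sgEzh2 and 8.12 with sgLuc. These counts are therefore not independent of the filter. Of 11 neutrophil genes 4 fell, and of 10 monocyte genes 4 fell and 1 rose, Cd14, a receptor for bacterial lipopolysaccharide, by 2.54 ± 0.25 (2.29e-05). Of 7 erythroid genes 4 rose, with the carbonic anhydrase Car1 at 2.58 ± 0.53 (0.00392), beside 10.8% of all tested genes. Without sgLuc replicate 1 the neutrophil and erythroid counts were 2 each, and without BRSST+sgLuc replicate 2 there were 7 monocyte falls. Bst2 is in both the plasmacytoid and the interferon lists, and Irf8 in both the plasmacytoid and the regulatory factor lists. The mean of the plasmacytoid list ran from 9.75 to 10.16 on sgLuc arrays, from 7.70 to 9.02 with BRSST+sgLuc and from 7.85 to 8.44 with BRSST+sgEzh2. The B lineage mean ran from 9.50 to 10.96, from 6.93 to 9.11 and from 7.09 to 9.42, and the T and NK mean from 8.73 to 9.05, from 6.67 to 8.18 and from 6.48 to 8.90. BRSST+sgLuc replicate 2, the array with the highest Isg15, Usp18 and Ube2l6 of its group, also had that group's highest plasmacytoid (9.02), B lineage (9.11), T and NK (8.18) and monocyte (9.96) means.

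Between the BRSST groups, where Ube2l6 was low, 0 of 8 plasmacytoid, 0 of 10 B lineage, 0 of 8 T and NK, 0 of 11 neutrophil, 0 of 7 basophil and 0 of 7 erythroid genes were called, and 1 of 10 monocyte genes rose, Mpeg1 (limma adjusted p = 0.0371), a call lost with 10 of the 13 arrays left out in turn. Beside 0.113% of all tested genes called lower and 0.67% called higher, 0 calls in lists of this size say little about the lists. They do not show that the cell types were unchanged. Mean signals were lower for 7 of 7 erythroid, 0 of 10 B lineage, 2 of 8 T and NK and 1 of 10 monocyte genes. They were lower for 5 of 8 plasmacytoid, 4 of 11 neutrophil and 4 of 7 basophil genes. At an unadjusted p under 0.05, 6 monocyte, 3 T and NK and 1 B lineage genes were higher and 5 erythroid genes lower. The plasmacytoid and the basophil lists each had 1 gene higher and 1 lower at that level, and the neutrophil list 0. The share of all tested genes at that level is not given, so these counts have no background beside them. The erythroid mean ran from 7.38 to 8.17 with BRSST+sgEzh2 and from 8.28 to 9.31 with BRSST+sgLuc, which do not overlap. The monocyte mean ran from 9.79 to 10.56 and from 8.95 to 9.96. The part of these cell types in the members' values was not tested.

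Within groups the members varied together to different degrees. Deviations from the group means over the 13 arrays, which share array and library, gave a Pearson r of 0.80 for Isg15 with Usp18 and 0.70 for Uba7 with Usp18. Ube2l6 had 0.64 with Usp18, 0.51 with Isg15 and 0.45 with both Uba7 and Herc6, and Herc6 had 0.07 with Uba7. By this measure the 3 genes most like Ube2l6 were Gpr18, Ctsw and H2-M3 (r of 0.90 each). Those most like Isg15 were Cox17 (0.93), Trim30d and Trp53rka (0.92 each), and those most like Usp18 were Ly96 (0.96), the immunoproteasome subunit Psmb9 (0.95) and Rala (0.93). For Uba7 they were Stap1 (0.94), Zmynd8 and Lilra6 (0.90 each), and for Herc6 Rars2 (0.94), Asxl2 (0.92) and Dnajc2 (0.91). These are descriptions over few arrays, chosen from 10601 genes.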

How the data were processed

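Bone marrow RNA of 13 samples in 3 groups was measured on 1 array each. Per the labels' protocols 2 ng of RNA was amplified with 10 PCR cycles, which can compress differences. The deposited values are log2 signals that the authors made, per the submitters' processing notes, with oligo in R. The sources used here do not give the background correction or the normalization, and the log2 scale was read from the values (3.23 to 13.75). Precision is limited by the number of arrays.

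Symbols were paired with 19572 of 22203 rows, none with several, and 2631 rows without one were left out. Where a symbol had several rows (55 symbols), the row of highest mean was used. Genes above the array median on at least 4 arrays (10601) were fitted in R 4.3.3 by limma 3.58.1, with eBayes after lmFit over all 13 arrays and no covariates, with Benjamini-Hochberg adjustment over all of them and a threshold of 0.05. Values after ± are the SE of that fit. Neighbours were taken from RefSeq order (GRCm38.p6), used without coordinates since the array's build is not given. Promoter windows came from the same release. The fit was tested on simulated data.

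Members and gene lists were chosen with earlier results of these data known. All 5 members were described. From each list the text draws on up to 4 called genes with the largest difference, or the 2 of smallest p, besides Ube2l3, Trim25, Stat2, Irf9, 3 neighbours on each side, the lowest or highest gene of a list, and the 3 genes most alike in deviations. Figures were drawn with matplotlib 3.10.9. Alternatives were other filters, normalizations, variance and weight settings, a replicate block, the 2 groups alone and each array left out.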

Additional observations from a re-analysis of the deposited data

Results flagged for a closer look

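Values standing apart from their group were sought in 27 sets of 4 or 5 arrays (9 genes in 3 groups), where chance marks about 1 set in 20. Isg15 on BRSST+sgLuc replicate 2 was high, at log2 7.55, where the nearest array of the group had 6.73. Herc6 on BRSST+sgLuc replicate 4 was low, at 8.26, where the nearest had 8.89. Trim25 on BRSST+sgEzh2 replicate 4 was high, at 9.20, where the nearest had 8.83.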

How the results depend on the processing

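Isg15 and Usp18 kept their calls against sgLuc under every alternative that tested them, with limma adjusted p of at most 0.00609 and 0.00528 for BRSST+sgLuc and 0.0275 and 0.0165 for BRSST+sgEzh2. Most of these alternatives use the main filter, which both genes passed only with the sgLuc arrays counted. The kept calls are therefore not independent of that filter. Of the 4 tested members none was called between the BRSST groups by limma under any of 25 alternatives, 24 for Isg15 and Usp18, which the filter at the 75th percentile removes. Ube2l6 ranged there from -1.70 to -1.34, nearest to 0 when either BRSST+sgEzh2 replicate 1 or the pair of BRSST+sgLuc replicates 2 and 5 was left out. Since Ube2l6 was picked for its fall on these same arrays, that range is a description and no support for the fall. In BRSST+sgLuc against sgLuc 2 of the 4 other members were called. The count was 4 with array quality weights, with the Y-linked class of the array as a block and without BRSST+sgLuc replicates 2 and 5, the last 2 chosen after seeing the data, and from 2 to 4 with each array left out. In BRSST+sgEzh2 against sgLuc it was 2, from 2 to 3 with an array left out, and 0 with the filter at the 75th percentile, which removes Isg15 and Usp18. That filter also left a count of 2 in BRSST+sgLuc against sgLuc, but there the genes were Uba7 and Herc6. Over all tested genes the calls in the order used above were 83, 2389 and 993, with ranges over the alternatives of 17 to 1039, 1481 to 4879 and 519 to 2976; the causes were not tested. Same-numbered arrays of different groups had deviations correlated from -0.176 to 0.192, so the numbers were not taken as pairs. With the replicate block the members' calls were the same, with Isg15 at -1.14 and Usp18 at -1.46 in BRSST+sgLuc against sgLuc, and Ube2l6 at -1.58 between the BRSST groups.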

Other observations

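Neighbours of the other members had calls of their own against sgLuc. Next to Herc6, Ppm1k, a mitochondrial phosphatase, fell by 0.72 in BRSST+sgLuc marrow (limma adjusted p = 0.012) while Vopp1, the third measured gene on its other side, rose by 1.06 (0.00123). Slc6a12, a betaine and GABA transporter and the second measured gene on one side of Usp18, fell by 1.25 (0.00127), while the adjacent Slc6a13 and Tuba8 stood at 0.06 (0.803) and -0.21 (0.398). Agrn, the measured gene beside Isg15, fell by 0.87 in BRSST+sgLuc marrow (0.00351). These are values of single genes, and no relation to the members was tested.

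Among USP proteases, Usp28 fell by 1.01 ± 0.16 in BRSST+sgLuc against sgLuc (limma adjusted p = 0.000741), and of 37 tested 4 rose and 6 fell, near the 10.8% and 11.7% of all tested genes. The rises numbered 1 without BRSST+sgLuc replicate 1 or sgLuc replicate 1 and 2 without BRSST+sgLuc replicate 4 or sgLuc replicate 3 or 4. The falls numbered 2 without sgLuc replicate 1 or 4 and 3 without sgLuc replicate 2. In the HERC family Herc2 fell by 0.66 ± 0.15 (0.00819), the single call among 4 genes in that comparison, where 2 were called without BRSST+sgLuc replicate 2.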
